A study of Homo sapiens with 15 samples.

Results

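The hairpin that targets every p63 isoform was compared directly with the hairpin that targets only the TA isoforms, in MCF-10A cells. p63 is a transcription factor of the p53 family. Its gene uses alternative promoters, which yield TA isoforms with an N-terminal transactivation domain and ΔN isoforms without it. ΔN isoforms predominate in basal epithelial cells, where p63 is known for sustaining proliferation and adhesion to the basement membrane. The 4 arrays of this comparison, of 15 in the study, were chosen by their labels: 2 carried the shRNA shDBD, directed at the DNA-binding domain common to the isoforms, and 2 carried shTA, directed at the TA domain. A gene that differs between them responds to something the hairpins do not share in equal measure. The design was meant to set apart isoforms other than TA, which was not tested.

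MCF-10A is a non-tumorigenic human breast epithelial line that grows without end in culture. All 15 samples are this line, and RNA was taken 48 hours after infection with a retrovirus or an adenovirus. The labels name 1 hairpin per target and do not tie a virus to a group. Levels in 2 arrays with the empty shRNA vector are given beside the comparison but took no part in its test. A further 9 arrays, 3 each with an empty expression vector, with overexpressed ΔNp63α and with overexpressed TAp63γ, share no array with the comparison. The p63 transcript was not analysed here, so the depth of knockdown by either hairpin was not measured. The labels call the replicates biological without saying whether they were separate infections, so the p-values below reflect the spread of these arrays, which may be technical.

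Values are log2 expression levels made by RMA, a background correction, normalization and summary of the probes in a probe set. Each difference is shDBD minus shTA ± SE from limma with n = 2 arrays per group, so a negative value means a lower level with shDBD, and a difference of 1 is 2-fold. A call means a Benjamini-Hochberg adjusted p below 0.05 over the 19064 probe sets with 1 gene symbol, and each of 11963 genes was read from its probe set with the highest mean level. Levels are not comparable between genes, since probe sets bind with different strength. The 2 shDBD arrays correlated at 0.998 and the 2 shTA arrays at 0.997, against 0.986 for each pair of arrays across the groups. The 3′ minus 5′ signal of actin, a sign of RNA quality, was 0.085 and 0.048 with shDBD and 0.0028 and 0.20 with shTA, so the second shTA array stood highest. Without that array 2292 genes were called between the hairpins, and 2125 of the 2868 called with all 4 arrays kept call and direction.

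Markers of the labelled cell type were present. None of the 7 measured basal and epithelial markers was below the 20th percentile of its arrays on all 4 arrays. Of the 7, ITGB4, LAMB3 and KRT14 were lower with shDBD and EPCAM was higher (median −0.22), and their summed linear level was 35912 and 35619 with shDBD and 47054 and 43564 with shTA. Keratin 5 was not called, at 13.97 and 13.86 with shDBD and 14.15 and 14.04 with shTA. Fibroblast and adipocyte markers gave no call among 8 and 4 genes. The summed linear level of the fibroblast markers was 1087 and 1092 with shDBD and 1153 and 1123 with shTA, and that of the adipocyte markers lay between 270.2 and 274 on the 4 arrays. Of 5 endothelial markers 1 was higher, PECAM1 (0.46 ± 0.10), a call lost without shDBD replicate 1, shDBD replicate 2 or shTA replicate 1. Of 8 luminal markers 4 were higher and none lower, or 2 without shDBD replicate 2, with GATA3 at 0.69 ± 0.078 and FOXA1 at 0.71 ± 0.10. Of 6 immune markers, CD14 and CSF1R were higher with shDBD (1.17 ± 0.099 and 0.57 ± 0.090) and MS4A1 was lower, at a level below the 20th percentile with shDBD and with a call lost when any array was left out. The leukocyte antigen PTPRC, at 6.05 and 5.85 with shDBD and 6.005 and 5.81 with shTA, and the T-cell receptor chain CD3E, at 6.74 and 6.80 with shDBD and 6.76 and 6.90 with shTA, overlapped between the groups. The summed immune marker level was 1801 and 2017 with shDBD and 1068 and 1108 with shTA. Fewer cells of a type and less RNA per cell cannot be told apart in bulk RNA.

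The hairpins differed widely. Of the 19064 probe sets 4300 were called (22.6%), and of the 11963 genes 2868 were called (24.0%). They split evenly, with 1438 genes lower with shDBD (12.0%) and 1430 higher (12.0%). Both shares are the background for the counts of each gene list below. Large differences leaned one way: of 279 called genes that differed at least 2-fold, 199 were lower with shDBD and 80 higher, and past 4-fold the counts were 21 and 6. Over all genes the median difference was 0.018, the range ran from −2.82 to 4.21, and the smallest called difference was 0.18 in size. Over all probe sets the largest decrease was −3.29. In each of the 2868 called genes the arrays of the groups did not overlap, which was so for 7186 of all 11963 genes. Where non-overlap is mentioned for a called gene, it thus adds nothing to the call. The number of calls depended on single arrays: it was 1680 without shDBD replicate 1, against 1915 to 2292 when another array was left out, and 1386 of the 2868 genes kept call and direction in all 4 of these fits.

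**Figure D1:**
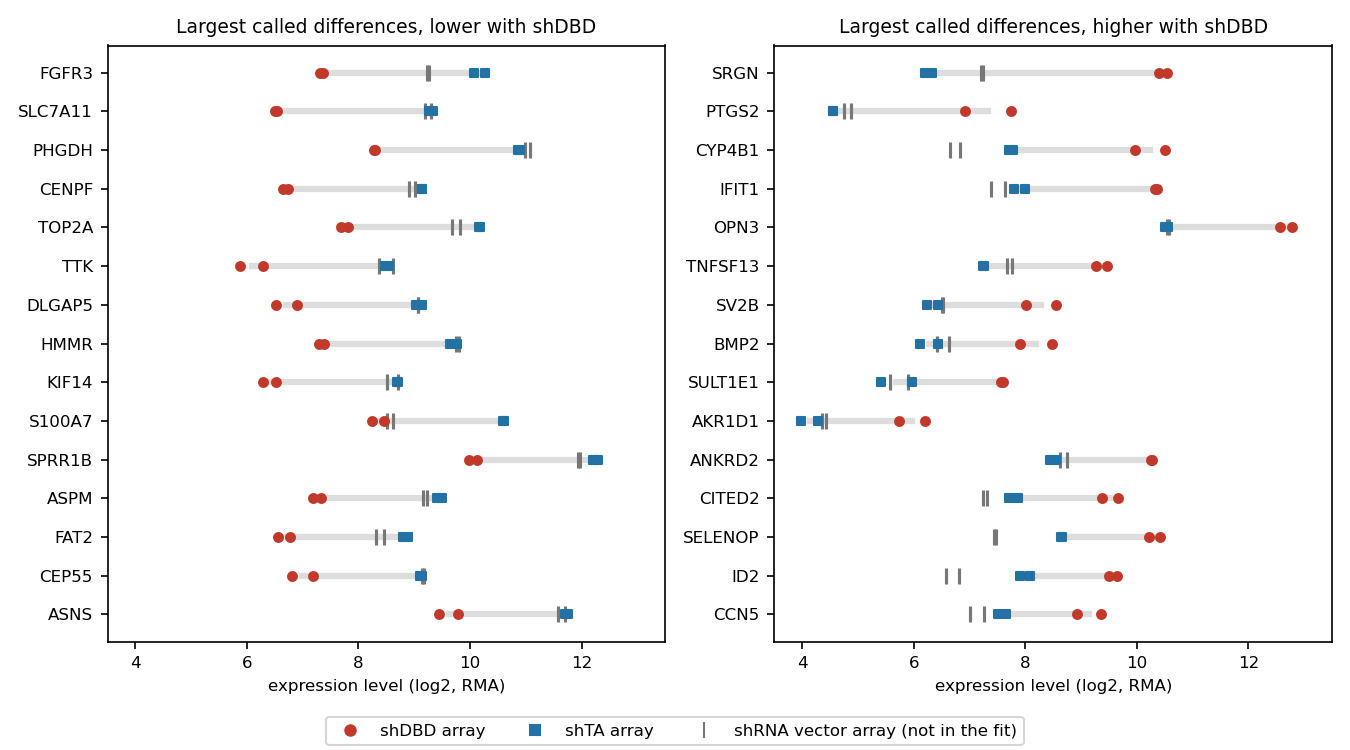
Expression level (log2, RMA) on each array for the 15 genes with the largest called difference in each direction; circles are shDBD arrays, squares shTA arrays, vertical ticks the shRNA vector arrays, and the grey bar joins the hairpin means. Circles and squares are apart in every row because only called genes with non-overlapping arrays were drawn. For S100A7 the vector ticks lie by the circles, while for most other genes they lie nearer the squares.

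Mitotic genes formed the most uniform group. All 22 measured mitotic kinases, cyclins and regulators were lower with shDBD (median −1.61), as were 28 of 29 genes of the kinetochore and spindle (median −1.60). CENPF, a kinetochore protein of late G2 and mitosis, lay at 6.65 and 6.74 with shDBD and 9.14 and 9.15 with shTA, a difference of −2.45 ± 0.086 (adjusted p = 1.56e-06). Both shDBD arrays lay far below both shTA arrays. TTK, the checkpoint kinase also known as MPS1, lay at 6.29 and 5.88 with shDBD and 8.47 and 8.54 with shTA (−2.42 ± 0.13). HMMR, a spindle-associated hyaluronan receptor, lay at 7.38 and 7.30 with shDBD and 9.63 and 9.77 with shTA (−2.36 ± 0.090). The spindle protein DLGAP5 differed by −2.38 ± 0.12, the mitotic kinesin KIF14 by −2.29 ± 0.10, ASPM, which acts at spindle poles, by −2.20 ± 0.092, and CEP55, needed for the final cut between daughter cells, by −2.13 ± 0.12. Among the cyclins, CCNA2 lay at 8.35 and 8.03 with shDBD and 10.20 and 10.19 with shTA (−2.01 ± 0.11) and CCNB1 at 9.47 and 9.26 with shDBD and 11.25 and 11.43 with shTA (−1.97 ± 0.098). INCENP, the scaffold of the chromosomal passenger complex, was the exception, at 6.67 and 6.70 with shDBD and 6.61 and 6.58 with shTA (0.093 ± 0.083, adjusted p = 0.517).

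Replication genes followed with smaller differences. Of 30 genes of replication licensing and the fork, 28 were lower with shDBD, with a median of −0.79. RFC3, a subunit of the clamp loader, lay at 7.88 and 7.86 with shDBD and 9.08 and 9.15 with shTA (−1.24 ± 0.083, adjusted p = 2.22e-05). MCM7, a subunit of the replicative helicase, lay at 9.05 and 8.89 with shDBD and 10.23 and 10.10 with shTA (−1.20 ± 0.091), and GINS2, which joins that helicase at the fork, at 8.28 and 8.18 with shDBD and 9.24 and 9.52 with shTA (−1.15 ± 0.11). The arrays were apart for each of these genes, as for every called gene. CDC6, a licensing factor, differed by −1.25 ± 0.20, a call lost once levels were floored at the 20th percentile. The polymerase subunit POLD1 did not pass (−0.28 ± 0.087, adjusted p = 0.0527). RFC5, another clamp loader subunit, was called higher from its brightest probe set and lower from its remaining probe sets, with values given further on. Of 19 genes of nucleotide synthesis 13 were lower and none higher (median −0.49), among them RRM2 (−1.38 ± 0.089) and RRM1 (−0.995 ± 0.079), the subunits of ribonucleotide reductase, and thymidine kinase TK1 (−1.11 ± 0.090). The purine synthesis enzymes ATIC (−0.064 ± 0.082) and ADSL (−0.032 ± 0.094) were not called. DNA repair and checkpoint genes were lower in 13 of 19 cases (8 with floored levels) and higher in none, with FANCI of the Fanconi anaemia pathway at −1.25 ± 0.10 and the BRCA1 partner BARD1 at −0.85 ± 0.085.

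Chromatin genes tied to cell division moved the same way. Of 29 genes of chromatin and nuclear architecture 21 were lower with shDBD and none higher (median −0.74). TOP2A, the topoisomerase that untangles chromosomes, lay at 7.81 and 7.68 with shDBD and 10.15 and 10.18 with shTA (−2.42 ± 0.086). The chromatin protein HMGB2 lay at 9.21 and 8.99 with shDBD and 11.01 and 11.02 with shTA (−1.92 ± 0.091), and the condensin subunits NCAPG and SMC4 differed by −1.75 ± 0.087 and −1.43 ± 0.089. Lamin A, a nuclear envelope protein whose gene is LMNA, did not pass (−0.14 ± 0.067, adjusted p = 0.19). Histone genes did not follow: of 23 measured, 8 were higher with shDBD and 1 was lower, with the linker histone H1-2 at 10.35 and 10.45 with shDBD and 9.01 and 9.49 with shTA (1.15 ± 0.14). Near-identical histone copies may share probe signal.

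The regulators of G1 were mixed, with 3 of 24 lower and 5 higher, beside 12.0% of all genes in each direction. These counts moved with single arrays, to 4 calls in all without either shDBD array and 5 without shTA replicate 1. The inhibitors of cyclin-dependent kinases CDKN1C (p57) and CDKN1A (p21) were higher with shDBD. CDKN1C lay at 11.08 and 11.34 with shDBD and 9.97 and 9.97 with shTA (1.24 ± 0.096). CDKN1A lay at 12.04 and 11.91 with shDBD and 10.97 and 10.99 with shTA (0.999 ± 0.074, adjusted p = 3.59e-05). Cyclin E2 was lower (−0.73 ± 0.092), and its level with shDBD was below the 20th percentile of the arrays. Cyclin D3 (−0.16 ± 0.069) and the E2F partner TFDP1 (−0.097 ± 0.076) were not called.

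The promoters of these genes are shown because the shares of promoters with known motifs differed between the gene lists. RefSeq promoters of build GRCh38.p14, each 300 bases from 250 before to 50 after the start, were found for 9562 of the 11963 genes, in 14057 promoters. In each sequence capitals mark matches, on either strand, to the motifs named for it below, and matches to the other motifs are left in lower case. The motifs are known from the cell cycle and from the interferon response. They were the cell cycle homology region (CHR, TTTGAA or TTTAAA), the CCAAT box (CCAAT), E2F sites (TTTCGCGC, TTTGGCGC, TTTCCCGC or TTTGGCGG) and the core of the interferon-stimulated response element (ISRE, read as GAAA, any 2 bases and GAAA). The first 3 sequences, with CHR and CCAAT in capitals, belong to mitotic genes, the next, with E2F and CCAAT, to a replication gene, and the last 2, with ISRE, to interferon genes described further on. The IFIT1 promoter also holds 2 CHR and 2 CCAAT matches, in lower case. Matches may overlap: the run CCAATTGG in HMMR holds a CCAAT box on each strand. A match is a description of letters and not a shown binding site.
CENPF (chr1:214602945-214603244, plus strand): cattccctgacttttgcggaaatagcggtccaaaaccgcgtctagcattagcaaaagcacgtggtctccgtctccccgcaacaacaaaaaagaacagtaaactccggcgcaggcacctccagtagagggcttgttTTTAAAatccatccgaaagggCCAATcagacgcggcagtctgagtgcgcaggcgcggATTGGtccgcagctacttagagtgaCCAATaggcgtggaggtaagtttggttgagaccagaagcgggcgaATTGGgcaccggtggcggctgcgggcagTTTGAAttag
HMMR (chr5:163460382-163460681, plus strand): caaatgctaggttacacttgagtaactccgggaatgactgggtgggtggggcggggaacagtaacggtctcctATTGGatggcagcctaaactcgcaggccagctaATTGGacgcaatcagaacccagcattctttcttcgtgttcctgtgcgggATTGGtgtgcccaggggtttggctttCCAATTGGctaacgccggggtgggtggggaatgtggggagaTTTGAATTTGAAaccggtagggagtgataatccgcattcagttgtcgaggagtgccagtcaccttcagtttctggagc
DLGAP5 (chr14:55191536-55191835, minus strand): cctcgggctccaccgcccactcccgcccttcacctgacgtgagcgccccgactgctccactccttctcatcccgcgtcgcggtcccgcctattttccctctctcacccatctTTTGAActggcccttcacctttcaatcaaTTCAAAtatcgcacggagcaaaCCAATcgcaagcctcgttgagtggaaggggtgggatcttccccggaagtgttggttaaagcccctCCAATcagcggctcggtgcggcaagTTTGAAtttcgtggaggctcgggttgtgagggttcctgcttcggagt
GINS2 (chr16:85688905-85689204, minus strand): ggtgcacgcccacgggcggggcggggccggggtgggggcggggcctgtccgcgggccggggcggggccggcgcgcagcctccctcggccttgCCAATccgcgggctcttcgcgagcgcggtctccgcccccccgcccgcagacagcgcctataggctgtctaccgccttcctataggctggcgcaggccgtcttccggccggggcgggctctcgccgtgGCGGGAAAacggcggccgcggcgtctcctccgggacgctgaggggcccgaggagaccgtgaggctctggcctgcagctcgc
IFIT1 (chr10:89392373-89392672, plus strand): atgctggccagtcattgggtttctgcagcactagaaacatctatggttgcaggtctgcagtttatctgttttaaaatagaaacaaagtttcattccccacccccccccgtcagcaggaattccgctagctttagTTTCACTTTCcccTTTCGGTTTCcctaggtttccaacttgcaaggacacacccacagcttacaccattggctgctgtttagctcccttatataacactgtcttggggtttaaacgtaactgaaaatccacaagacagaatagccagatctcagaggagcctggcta
ISG15 (chr1:1013247-1013546, plus strand): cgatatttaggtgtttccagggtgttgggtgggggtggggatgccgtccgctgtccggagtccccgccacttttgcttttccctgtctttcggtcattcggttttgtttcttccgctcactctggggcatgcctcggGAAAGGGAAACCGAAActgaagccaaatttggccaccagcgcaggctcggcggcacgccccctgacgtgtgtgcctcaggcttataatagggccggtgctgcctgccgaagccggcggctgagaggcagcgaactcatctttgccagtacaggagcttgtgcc

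The motif shares differed between the groups. Of the 14057 promoters of tested genes 19.3% held a CHR, 35.1% a CCAAT box, 4.49% an E2F motif and 3.02% an ISRE core, and over all 35116 promoters in the table the shares were 24.0%, 34.6%, 3.35% and 3.57%. Of 27 promoters of kinetochore and spindle genes 26 held a CHR (96.3%) and 22 held both CHR and CCAAT (81.5%), against 7.66% of promoters of tested genes with both. Promoters of the mitotic kinases and cyclins held a CHR in 13 of 27 cases (48.1%) and a CCAAT box in 19 (70.4%). Several promoters of a gene were counted separately. The 27 of the mitotic kinases and cyclins belonged to 16 genes, and the 27 of the kinetochore and spindle to 26. Replication genes had a CHR in 2 of 36 promoters (5.56%), which belonged to 28 genes, but an E2F motif in 19 (52.8%). Among all genes called lower the shares were much closer to the tested genes, at 22.6% for CHR and 7.14% for E2F. Among genes lower by at least 2-fold 23.5% of 243 promoters held both CHR and CCAAT, and among those higher by at least 2-fold 3.85% of 104 did.

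**Figure D2:**
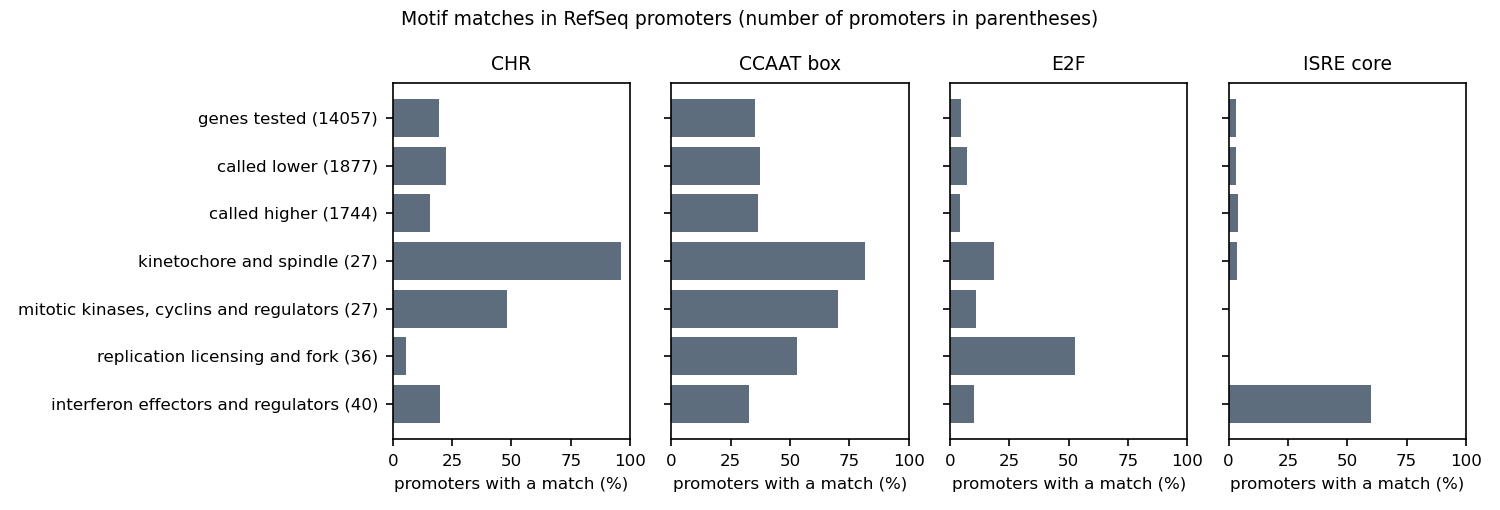
Share of RefSeq promoters (300 bases each) with at least 1 match to each motif, for all tested genes, genes called lower or higher with shDBD, and 4 gene lists, with the number of promoters in parentheses. CHR and CCAAT matches are most frequent in the kinetochore and spindle list, E2F matches in the replication list (52.8%) and ISRE matches in the interferon list (60%).

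Synthesis and import of amino acids were lower with shDBD. Of 11 genes of serine, folate and transsulfuration metabolism 8 were lower and none higher (median −0.48), as were 11 of 19 amino acid transporters with 1 higher (median −0.62). PHGDH, the first enzyme of serine synthesis from a glycolytic intermediate, lay at 8.30 and 8.27 with shDBD and 10.89 and 10.86 with shTA (−2.59 ± 0.078, adjusted p = 9.42e-07). The cystine importer SLC7A11 lay at 6.51 and 6.53 with shDBD and 9.34 and 9.27 with shTA (−2.79 ± 0.085), which ranked just after FGFR3 among the decreases. In both genes the replicates lay close together and the groups far apart. PSAT1, the next enzyme of serine synthesis, differed by −1.82 ± 0.12, the mitochondrial folate enzyme MTHFD2 by −1.61 ± 0.11, and CBS, which starts transsulfuration, by −2.06 ± 0.16. AHCY, which breaks down S-adenosylhomocysteine, was not called (−0.072 ± 0.081). Among importers of neutral amino acids, SLC1A5 lay at 9.93 and 9.69 with shDBD and 11.35 and 11.25 with shTA (−1.49 ± 0.095) and SLC1A4 at 6.93 and 7.16 with shDBD and 8.60 and 8.50 with shTA (−1.501 ± 0.10), while SLC38A2 (0.061 ± 0.088) and SLC7A8 (0.025 ± 0.084) overlapped between the groups and were not called.

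Genes of the ATF4 pathway, the response to amino acid shortage and endoplasmic reticulum stress, were lower in 10 of 16 cases and higher in 2 (median −0.49). Asparagine synthetase, ASNS, lay at 9.79 and 9.45 with shDBD and 11.77 and 11.70 with shTA (−2.11 ± 0.11, adjusted p = 5.65e-06). EIF4EBP1, an inhibitor of cap-dependent translation, lay at 9.15 and 9.18 with shDBD and 11.000 and 11.19 with shTA (−1.93 ± 0.087), and the pseudokinase TRIB3 differed by −1.10 ± 0.081. The stress factor ATF3 went the other way, at 8.47 and 8.48 with shDBD and 6.95 and 7.08 with shTA (1.46 ± 0.088). DDIT4 (−0.070 ± 0.064) and CEBPB (0.047 ± 0.067) were not called. Of 16 aminoacyl tRNA synthetases, which load amino acids onto tRNA, 10 were lower and none higher (median −0.51). AARS1 lay at 9.98 and 9.93 with shDBD and 11.10 and 11.08 with shTA (−1.13 ± 0.073), YARS1 differed by −1.003 ± 0.093 and GARS1 by −0.95 ± 0.063, whereas KARS1 (−0.023 ± 0.061) and HARS1 (0.012 ± 0.078) were not called.

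Genes known as targets of p53, which p63 resembles in its DNA-binding domain, were mostly higher with shDBD. Of 22 measured, 14 were higher and 1 was lower (median 0.46). BAX, which permeabilizes the outer mitochondrial membrane, lay at 9.85 and 9.55 with shDBD and 7.92 and 8.44 with shTA (1.52 ± 0.16, adjusted p = 0.000299). The stress regulator SESN1 lay at 9.96 and 9.98 with shDBD and 8.75 and 8.92 with shTA (1.13 ± 0.088), and the secreted growth factor family member GDF15 at 10.04 and 9.89 with shDBD and 8.89 and 8.86 with shTA (1.09 ± 0.086). The arrays were apart in all 3 genes, as in every called gene. PHLDA3 (−0.040 ± 0.077) and PLK2 (0.15 ± 0.086) were not called. Of 15 BCL2 family genes 8 were higher and none lower (median 0.34), a count of 5 when shDBD replicate 1, shDBD replicate 2 or shTA replicate 1 was left out. BCL2L1, whose main product BCL-XL protects from apoptosis, lay at 10.84 and 10.66 with shDBD and 9.95 and 10.01 with shTA (0.77 ± 0.086), and the mitophagy receptor BNIP3L differed by 0.78 ± 0.091. MCL1, a further survival factor, was not called (−0.16 ± 0.083). Among death receptors and caspases 3 of 18 were higher and 1 was lower, beside 12.0% of all genes in each direction. CASP9 differed by 0.95 ± 0.091, the receptor TNFRSF10B by 0.88 ± 0.077 and CASP1 by −0.68 ± 0.089.

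**Figure D3:**
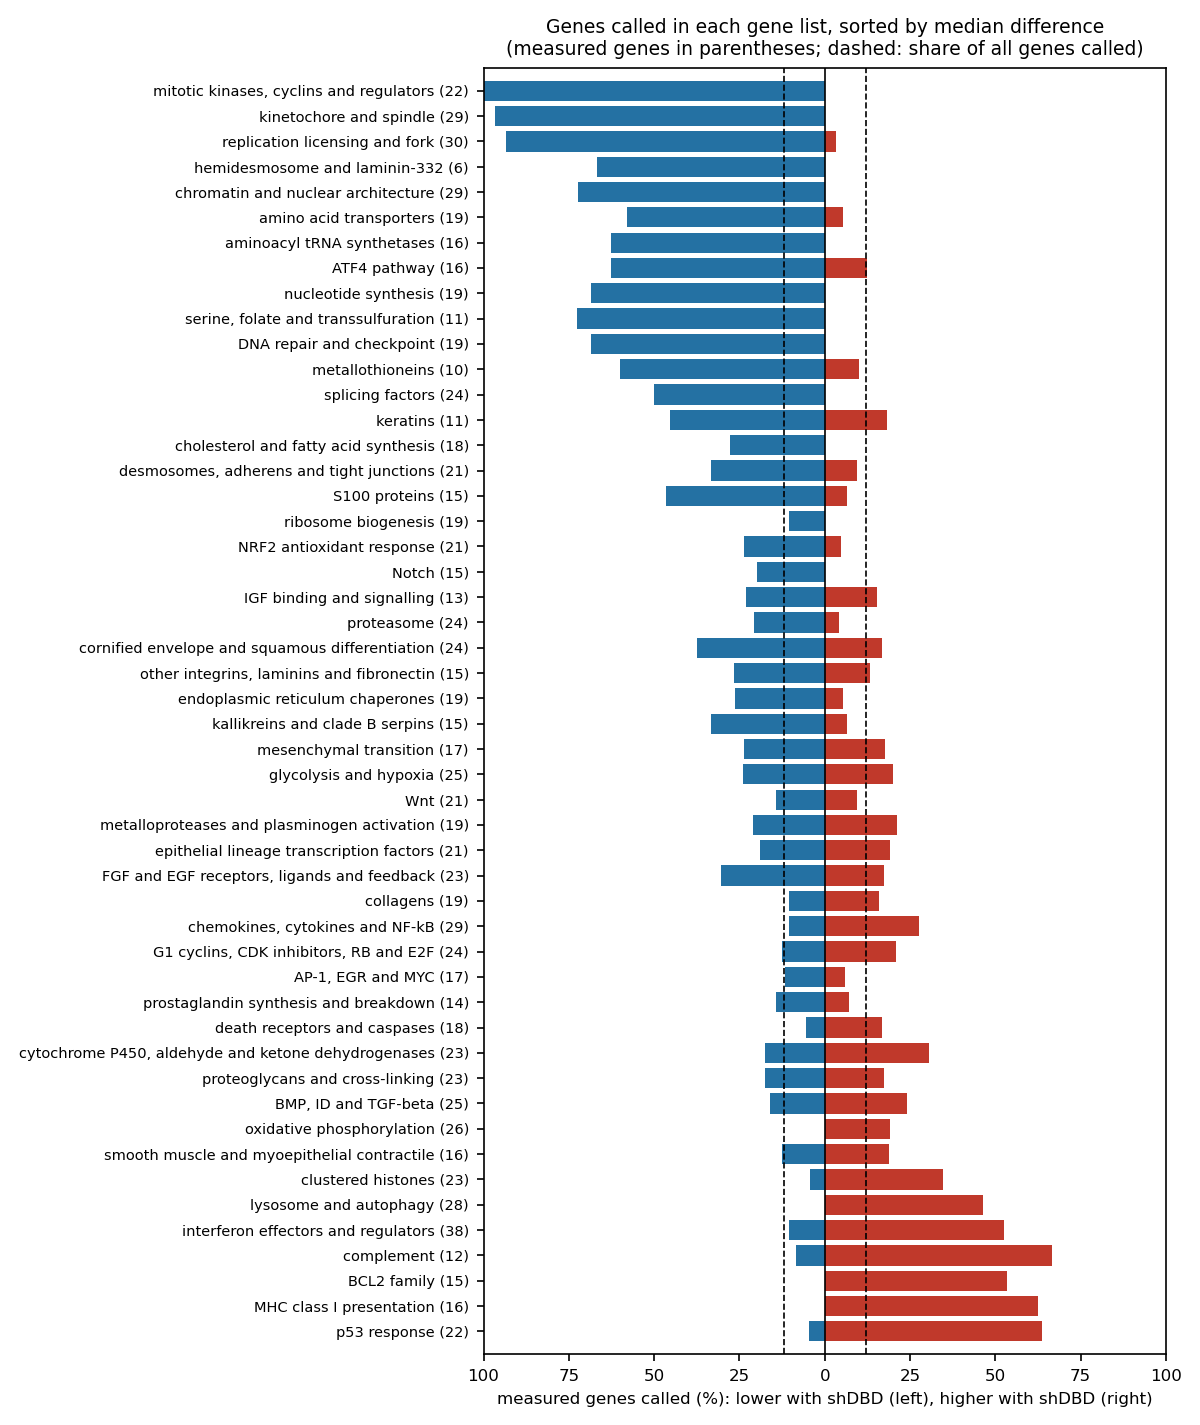
Percent of the measured genes of each of 50 lists called lower (left, blue) or higher (right, red) with shDBD than with shTA, sorted by the median difference of the list, with the share of all genes called in each direction as dashed lines (12.0% each). Mitotic and replication lists stand at the top with nearly all genes lower, and p53, MHC class I, BCL2, complement and interferon lists at the bottom with the larger share higher.

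Hemidesmosome genes led the differences in adhesion to the basement membrane. Of 6 measured genes of hemidesmosomes and laminin-332, which anchor basal cells, 4 were lower with shDBD and none higher (median −0.76). Integrin β4, gene ITGB4, lay at 10.30 and 9.91 with shDBD and 12.16 and 11.74 with shTA (−1.84 ± 0.15, adjusted p = 6.74e-05). Its partner ITGA6 lay at 9.55 and 9.67 with shDBD and 10.89 and 10.70 with shTA (−1.18 ± 0.092) and the keratin linker DST at 8.56 and 8.66 with shDBD and 9.79 and 9.52 with shTA (−1.04 ± 0.11). The laminin chain LAMB3 differed by −0.48 ± 0.078, while CD151 (−0.037 ± 0.089) and PLEC (−0.15 ± 0.17) overlapped between the groups. Among 15 other integrins, laminins and fibronectin, 4 were lower and 2 higher. The laminin chain LAMB2 was higher, at 9.04 and 9.13 with shDBD and 7.71 and 7.66 with shTA (1.40 ± 0.085), and fibronectin, FN1, was lower (−0.53 ± 0.089). Integrin β1, the common partner of many α chains, was not called (ITGB1, −0.088 ± 0.079).

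Cell-to-cell junctions and the cell surface gave single large differences. Of 21 desmosome, adherens and tight junction genes 7 were lower and 2 higher, or 5 in all without either shDBD array. The desmosomal cadherin DSC3 lay at 9.15 and 9.12 with shDBD and 10.36 and 10.23 with shTA (−1.16 ± 0.084, adjusted p = 3.16e-05), and E-cadherin, CDH1, was not called (−0.22 ± 0.097). FAT2, a giant protocadherin, lay at 6.77 and 6.56 with shDBD and 8.88 and 8.79 with shTA (−2.17 ± 0.099). The syndecan SDC1, a heparan sulfate proteoglycan, lay at 10.88 and 11.07 with shDBD and 12.46 and 12.42 with shTA (−1.46 ± 0.081). The epithelial adhesion molecule EPCAM was higher with shDBD, at 10.26 and 10.16 with shDBD and 9.40 and 9.33 with shTA (0.85 ± 0.081), and the hyaluronan receptor CD44 was lower, at 10.40 and 10.45 with shDBD and 11.54 and 11.56 with shTA (−1.12 ± 0.071). SNAI2, a zinc finger repressor of the mesenchymal transition list that is also expressed in basal cells, lay at 8.14 and 7.71 with shDBD and 9.97 and 10.02 with shTA (−2.07 ± 0.13). In that list 4 of 17 genes were lower and 3 higher, and vimentin was not called (VIM, −0.23 ± 0.072).

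Genes of squamous differentiation were lower as a few large differences and not as a whole. Of 24 genes of the cornified envelope and squamous differentiation 9 were lower and 4 higher, with a median of −0.092. SPRR1B, a small proline-rich precursor of the cornified envelope, lay at 10.13 and 9.97 with shDBD and 12.29 and 12.21 with shTA (−2.20 ± 0.080, adjusted p = 1.82e-06), and SPRR1A, a near-identical copy that may share probe signal, differed by −1.93 ± 0.095. The differentiation factor ZNF750 lay at 5.11 and 5.07 with shDBD and 7.01 and 6.62 with shTA (−1.73 ± 0.12), below the 20th percentile with shDBD. The protease inhibitor PI3 (−0.062 ± 0.064) and SPRR2B (−0.38 ± 0.12) were not called. Of 15 S100 genes 7 were lower and 1 higher, or 5 calls in all without shDBD replicate 1. S100A7 (psoriasin) lay at 8.45 and 8.24 with shDBD and 10.61 and 10.58 with shTA (−2.25 ± 0.094), S100A9 at 11.15 and 11.07 with shDBD and 12.87 and 13.06 with shTA (−1.86 ± 0.080) and its partner in calprotectin, S100A8, at 12.59 and 12.56 with shDBD and 13.97 and 13.997 with shTA (−1.41 ± 0.056). None of these overlapped between the groups, which holds for every called gene. SERPINB13, a protease inhibitor of keratinocytes, lay at 7.08 and 6.90 with shDBD and 8.71 and 8.98 with shTA (−1.85 ± 0.11). Among 11 keratins 5 were lower and 2 higher, or 4 calls in all without shDBD replicate 2, with KRT15 at 11.54 and 11.57 with shDBD and 12.22 and 12.28 with shTA (−0.70 ± 0.066) and KRT14 at −0.44 ± 0.055, and KRT5 was not called (−0.18 ± 0.063).

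Growth factor receptors differed at named members rather than as a list. FGFR3, a receptor for fibroblast growth factors, had the largest decrease of any gene at the brightest probe sets. It lay at 7.37 and 7.31 with shDBD and 10.26 and 10.07 with shTA (−2.82 ± 0.094, adjusted p = 1.18e-06). FGFBP1, which releases such factors from the matrix, lay at 10.33 and 10.59 with shDBD and 11.43 and 11.65 with shTA (−1.08 ± 0.11). EGFR, the receptor for epidermal growth factor, lay at 9.82 and 9.74 with shDBD and 10.99 and 10.92 with shTA (−1.17 ± 0.077), and its ligand HBEGF differed by −0.83 ± 0.082. In all 4 genes the shDBD arrays were lower. ERBB2 (0.087 ± 0.084) and SPRY4 (−0.087 ± 0.086) were not called, and of the 23 genes in the list 7 were lower and 4 higher. The Notch ligand JAG1 lay at 7.22 and 7.03 with shDBD and 8.75 and 8.68 with shTA (−1.59 ± 0.095), in a list of 15 genes with 3 lower and none higher, and NOTCH1 was not called (0.035 ± 0.081). The immediate early factor EGR1 lay at 8.09 and 7.83 with shDBD and 9.28 and 9.20 with shTA (−1.28 ± 0.10) and MYC differed by −0.53 ± 0.070.

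The list of BMP, ID and TGF-β genes moved in both directions, with 4 of 25 lower with shDBD, 6 higher and 15 not called (median 0.072). The ligand BMP2 lay at 7.90 and 8.48 with shDBD and 6.44 and 6.11 with shTA (1.91 ± 0.18, adjusted p = 0.000133), and its target ID2, an inhibitor of basic helix-loop-helix factors, at 9.51 and 9.64 with shDBD and 7.91 and 8.09 with shTA (1.57 ± 0.097). The latent TGF-β binding protein LTBP1 and the matrix protein TGFBI were lower (−1.49 ± 0.082 and −1.19 ± 0.061). The Wnt antagonist DKK1 lay at 10.63 and 10.81 with shDBD and 9.501 and 9.69 with shTA (1.12 ± 0.097) and the receptor FZD6 at 9.59 and 9.38 with shDBD and 10.43 and 10.26 with shTA (−0.86 ± 0.099). Among 21 Wnt genes 3 were lower and 2 higher, near the 12.0% of all genes called in each direction.

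The largest increase of any gene was SRGN, serglycin, a proteoglycan of secretory granules. It lay at 10.40 and 10.55 with shDBD and 6.20 and 6.33 with shTA (4.21 ± 0.094, adjusted p = 2.65e-07), a 18.5-fold difference. PTGS2, the inducible prostaglandin synthase COX-2, lay at 6.92 and 7.75 with shDBD and 4.55 and 4.55 with shTA (2.79 ± 0.21), and its level with shTA was below the 20th percentile of the arrays. Its shDBD arrays differed from each other more than the arrays of most genes named here, yet both lay above shTA. Of 14 prostaglandin genes no other was higher and 2 were lower, beside 12.0% of all genes in each direction. The cytochrome CYP4B1 lay at 9.97 and 10.50 with shDBD and 7.72 and 7.78 with shTA (2.49 ± 0.15), the light-sensitive receptor family member OPN3 at 12.56 and 12.79 with shDBD and 10.51 and 10.56 with shTA (2.14 ± 0.085) and the cytokine TNFSF13 (APRIL) at 9.47 and 9.27 with shDBD and 7.26 and 7.25 with shTA (2.11 ± 0.095). The shDBD arrays were higher in each. Decorin, DCN, a small matrix proteoglycan, lay at 10.69 and 10.73 with shDBD and 9.08 and 9.27 with shTA (1.54 ± 0.088) and smooth muscle actin, ACTA2, at 10.33 and 9.98 with shDBD and 8.65 and 8.76 with shTA (1.46 ± 0.12). The transcriptional regulator CITED2 differed by 1.73 ± 0.11, selenoprotein P, SELENOP, by 1.68 ± 0.091 and the oestrogen sulfotransferase SULT1E1 by 1.90 ± 0.16. The bile acid enzyme AKR1D1 differed by 1.84 ± 0.16, with shTA below the 20th percentile, and its call was lost once levels were floored there.

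Interferon and antigen presentation genes were mostly higher with shDBD. Of 38 interferon effectors and regulators 20 were higher and 4 lower (median 0.30), with differences from −1.12 to 2.45. IFIT1, which binds foreign RNA, lay at 10.36 and 10.32 with shDBD and 7.80 and 7.99 with shTA (2.45 ± 0.093, adjusted p = 1.96e-06). The ubiquitin-like ISG15 lay at 9.91 and 9.66 with shDBD and 8.19 and 8.41 with shTA (1.49 ± 0.11), the antiviral enzyme RSAD2 (viperin) at 7.10 and 6.95 with shDBD and 5.56 and 5.70 with shTA (1.40 ± 0.096) and IRF9, which carries the interferon signal to DNA, at 9.66 and 9.48 with shDBD and 8.12 and 8.28 with shTA (1.37 ± 0.098). The groups did not overlap in any of these, nor in any other called gene. OAS3, an antiviral sensor, went the other way (−0.51 ± 0.11, adjusted p = 0.00875), a call lost without shDBD replicate 2 or shTA replicate 1, and UBE2L6 was not called (0.058 ± 0.087). In the sequences shown above, the IFIT1 and ISG15 promoters hold 2 ISRE cores each. Of 40 promoters of the list, which belong to 30 genes, 24 hold at least 1 (60%). Of 16 genes of MHC class I presentation 10 were higher and none lower (median 0.40), or 6 higher without either shDBD array. The peptide transporter TAP1 lay at 9.22 and 9.29 with shDBD and 8.42 and 8.63 with shTA (0.73 ± 0.095) and HLA-B at 13.03 and 13.09 with shDBD and 12.49 and 12.47 with shTA (0.58 ± 0.060), whose near-identical relatives may share probe signal.

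Secreted immune factors were mixed. Of 12 complement genes 8 were higher and 1 lower (median 0.32), or 5 calls in all without shDBD replicate 2. The central component C3 lay at 12.41 and 12.51 with shDBD and 11.58 and 11.50 with shTA (0.92 ± 0.071, adjusted p = 4.48e-05) and factor B, CFB, at 9.39 and 9.65 with shDBD and 8.79 and 8.66 with shTA (0.80 ± 0.11). Among 29 chemokines, cytokines and NF-κB genes 8 were higher and 3 lower, or 5 calls in all without shDBD replicate 1. The chemokine CXCL8 lay at 9.23 and 9.78 with shDBD and 8.36 and 8.83 with shTA (0.91 ± 0.19), a call lost without shDBD replicate 2, and interleukin 1α, IL1A, was lower, at 8.22 and 8.51 with shDBD and 8.997 and 9.10 with shTA (−0.68 ± 0.11).

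Proteolysis at the cell surface gave differences in both directions. Of 19 genes of metalloproteases and plasminogen activation 4 were lower and 4 higher. The plasminogen activator PLAT lay at 8.08 and 7.82 with shDBD and 9.84 and 9.86 with shTA (−1.90 ± 0.10, adjusted p = 6.31e-06) and PLAU at 8.59 and 8.65 with shDBD and 9.52 and 9.48 with shTA (−0.88 ± 0.081), both lower with shDBD. Thrombomodulin, THBD, was lower (−1.35 ± 0.092) and the coagulation inhibitor TFPI higher (1.03 ± 0.098). TIMP1 was not called (0.15 ± 0.057).

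Lysosomal genes were higher and central metabolism was divided. Of 28 genes of lysosome and autophagy 13 were higher and none lower (median 0.28). Cathepsin A, CTSA, lay at 11.22 and 11.23 with shDBD and 10.001 and 10.07 with shTA (1.19 ± 0.073, adjusted p = 1.37e-05) and the mannosidase MAN2B1 at 10.28 and 10.09 with shDBD and 9.19 and 9.09 with shTA (1.05 ± 0.093), while cathepsin B was not called (CTSB, 0.21 ± 0.069). Of 25 genes of glycolysis and hypoxia 6 were lower and 5 higher. The carbonic anhydrase CA12 lay at 8.35 and 8.02 with shDBD and 10.16 and 10.18 with shTA (−1.98 ± 0.11), the collagen hydroxylase P4HA1 at 9.73 and 9.97 with shDBD and 8.59 and 8.51 with shTA (1.29 ± 0.099), and the housekeeping enzyme GAPDH was not called (0.033 ± 0.048). GCLC, the rate-limiting subunit of glutathione synthesis, was lower, at 9.20 and 9.22 with shDBD and 10.29 and 10.30 with shTA (−1.08 ± 0.076). Metallothioneins, which bind zinc and copper, were lower in 6 of 10 listed genes (median −0.43), with MT1F at −0.76 ± 0.058, whereas the zinc exporter SLC30A1 was higher, at 11.85 and 12.18 with shDBD and 11.04 and 11.06 with shTA (0.96 ± 0.10). The near-identical metallothioneins may share probe signal.

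The remaining lists are given together, beside a background of 12.0% in each direction, and several of them rested on single arrays. Splicing factors were lower in 12 of 24 genes, the largest difference being −0.57 ± 0.073 for SNRPA, and in 6 without either shDBD array. Of 24 proteasome genes 5 were lower and 1 higher, but 1 was called without shDBD replicate 1 and 3 without shDBD replicate 2. Oxidative phosphorylation had 5 of 26 genes higher, but 1 was called without shDBD replicate 1, 2 without shDBD replicate 2 and 3 without shTA replicate 1. Cholesterol and fatty acid synthesis had 5 of 18 lower, or 2 without shDBD replicate 1 and 3 without shTA replicate 1, and the desaturase SCD differed by −0.55 ± 0.080. Of 19 ribosome biogenesis genes 2 were lower, or 1 without either shDBD array or shTA replicate 1, with NPM1 not called (−0.18 ± 0.061). Of 19 endoplasmic reticulum chaperones 5 were lower and 1 higher, or 3 calls without either shDBD array. Both directions occurred among proteoglycans (4 of 23 lower and 4 higher), collagens (2 and 3 of 19), contractile genes (2 and 3 of 16, or 2 calls in all without either shDBD array and 3 without shTA replicate 2), epithelial lineage transcription factors (4 and 4 of 21, or 5 calls in all without shTA replicate 2), IGF signalling genes (3 and 2 of 13, or 3 calls in all without shDBD replicate 2) and the AP-1, EGR and MYC list (2 and 1 of 17). The splicing regulator ESRP1, at 8.21 and 8.12 with shDBD and 9.14 and 9.18 with shTA (−0.99 ± 0.084), and the lineage factor KLF4, at 7.99 and 8.15 with shDBD and 8.95 and 9.10 with shTA (−0.96 ± 0.097), were lower. Of 15 kallikreins and clade B serpins 5 were lower and 1 higher, and of 21 NRF2 target genes 5 and 1. Among 23 cytochrome P450 and aldehyde or ketone dehydrogenase genes 4 were lower and 7 higher, with ALDH6A1 of valine breakdown at 1.28 ± 0.095 and the retinaldehyde dehydrogenase ALDH1A3 at 1.22 ± 0.091. The 50 lists, without the marker lists, hold 982 genes, and 2392 of the 2868 called genes lie outside them.

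The vector arrays show on which side of the control each difference lies. Of the 1438 genes lower with shDBD the vector mean was at or beyond the shTA level in 556 (38.7%) and nearer to shTA in 449 (31.2%), midway in 250 (17.4%), nearer to shDBD in 102 (7.09%) and beyond shDBD in 81 (5.63%). Of the 1430 genes higher with shDBD the shares were 47.2%, 31.0%, 14.3%, 5.66% and 1.75% in the same order. For these classes the gap between the hairpin means was cut into 3 equal stretches, and nearer to a hairpin means in the stretch next to its mean. In most called genes the vector thus lay beyond shTA or nearer to shTA than to shDBD. These positions use arrays of the comparison itself and are a description with no test.

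**Figure D4:**
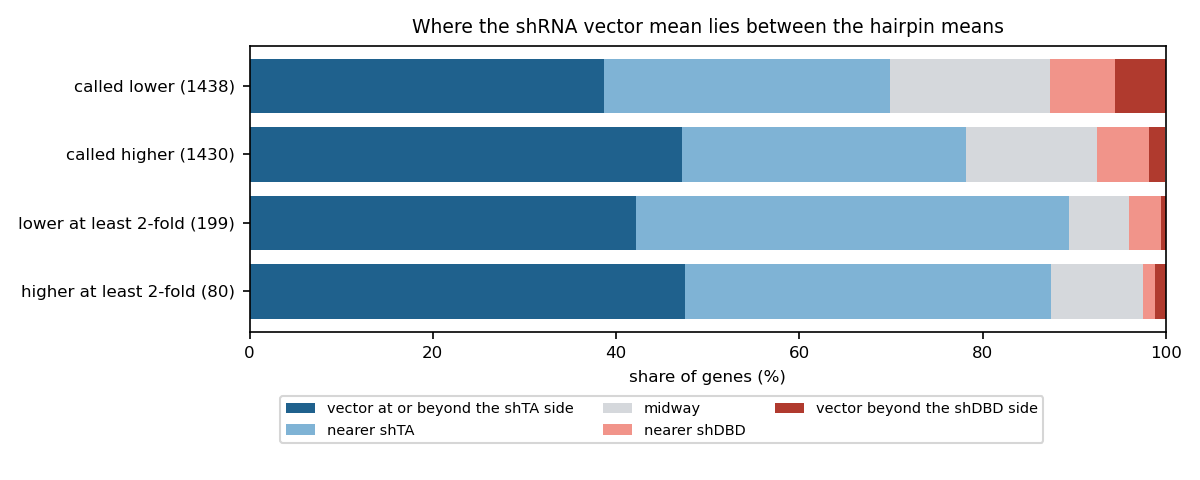
Share of called genes by where the shRNA vector mean lies relative to the hairpin means, for all genes called in each direction and for those that differ at least 2-fold (number of genes in parentheses). The blue segments, where the vector lies at or beyond the shTA mean or in the stretch next to it, make up most of every bar. Beyond has no limit, so shTA itself may lie far from the vector in blue genes. The red segments, where the vector lies beyond the shDBD mean or in the stretch next to it, are largest for genes called lower, at 7.09% and 5.63%.

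For mitotic genes and for PHGDH and SLC7A11 the distance from the vector was almost wholly that of shDBD. The median of the mitotic kinases and cyclins was −1.63 for shDBD minus vector and 0.033 for shTA minus vector, and that of replication genes −0.88 and −0.12. PHGDH differed from the vector by −2.75 ± 0.070 with shDBD and by −0.16 ± 0.070 with shTA. For SLC7A11 these values were −2.72 ± 0.082 and 0.064 ± 0.082. The vector level of FGFR3 fell between the hairpins, with −1.90 ± 0.086 for shDBD and 0.93 ± 0.086 for shTA (adjusted p = 0.00012). SRGN was likewise split, at 3.25 ± 0.090 and −0.96 ± 0.090 (adjusted p = 0.00013). In either gene the hairpins lay on opposite sides of the vector.

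In a smaller set it was shTA that stood farther from the vector. S100A7 lay at 8.51 and 8.62 in the vector arrays, so that shDBD differed from them by −0.22 ± 0.089 (adjusted p = 0.0939) and shTA by 2.03 ± 0.089 (adjusted p = 1.07e-06). S100A9 was at −0.36 ± 0.073 with shDBD and 1.496 ± 0.073 with shTA, and S100A8 at −0.18 ± 0.054 and 1.23 ± 0.054. For these secreted alarmins the gap between shTA and the vector was larger than that between shDBD and the vector. KRT15 was at 0.11 ± 0.064 with shDBD and 0.81 ± 0.064 with shTA. The aldehyde dehydrogenase ALDH3B2 was at −0.087 ± 0.095 and 0.80 ± 0.095. GDF15 lay at 10.05 and 10.09 in the vector arrays, and was lower with shTA (−1.19 ± 0.077) than with shDBD (−0.10 ± 0.077). BCL2L1 followed GDF15, at −0.62 ± 0.076 with shTA and 0.16 ± 0.076 with shDBD. For these genes the TA hairpin gave the larger distance from the vector, and a dependence on non-TA isoforms was not tested.

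In other genes both hairpins stood on the same side of the vector and differed in size. CDKN1C was higher than the vector by 2.51 ± 0.090 with shDBD and by 1.26 ± 0.090 with shTA. ID2 differed by 2.88 ± 0.10 and 1.31 ± 0.10, SELENOP by 2.86 ± 0.085 and 1.18 ± 0.085, and CFB by 2.28 ± 0.098 and 1.48 ± 0.098, each higher with both hairpins. TRIB3 was lower with both, at −1.79 ± 0.071 and −0.68 ± 0.071, as was LAMB3, at −1.24 ± 0.069 and −0.76 ± 0.069.

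The overexpression arrays, which share no array with the hairpins, were then read for the same genes. ΔNp63α against its vector called 1558 of 11963 genes lower (13.0%) and 1160 higher (9.7%), and TAp63γ called 2431 lower (20.3%) and 2229 higher (18.6%). Of the 1438 genes lower with shDBD, 334 were higher with ΔNp63α, which is 23.2% of the hairpin list and 28.8% of the isoform list, and 293 were lower (20.4% and 18.8%). Of the 1430 genes higher with shDBD, 297 were lower with ΔNp63α (20.8% and 19.1%) and 204 higher (14.3% and 17.6%). Each of these shares of the hairpin lists exceeds the background in its direction, and the excess was larger in the opposite direction than in the same direction, a difference that was not tested. With TAp63γ the larger counts ran in the same direction: 650 genes were lower in both (45.2% and 26.7%) and 554 higher in both (38.7% and 24.9%), against 335 lower with shDBD and higher with TAp63γ (23.3% and 15%) and 243 the reverse (17% and 10%). Both isoforms were set against the same 3 vector arrays.

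**Figure D5:**
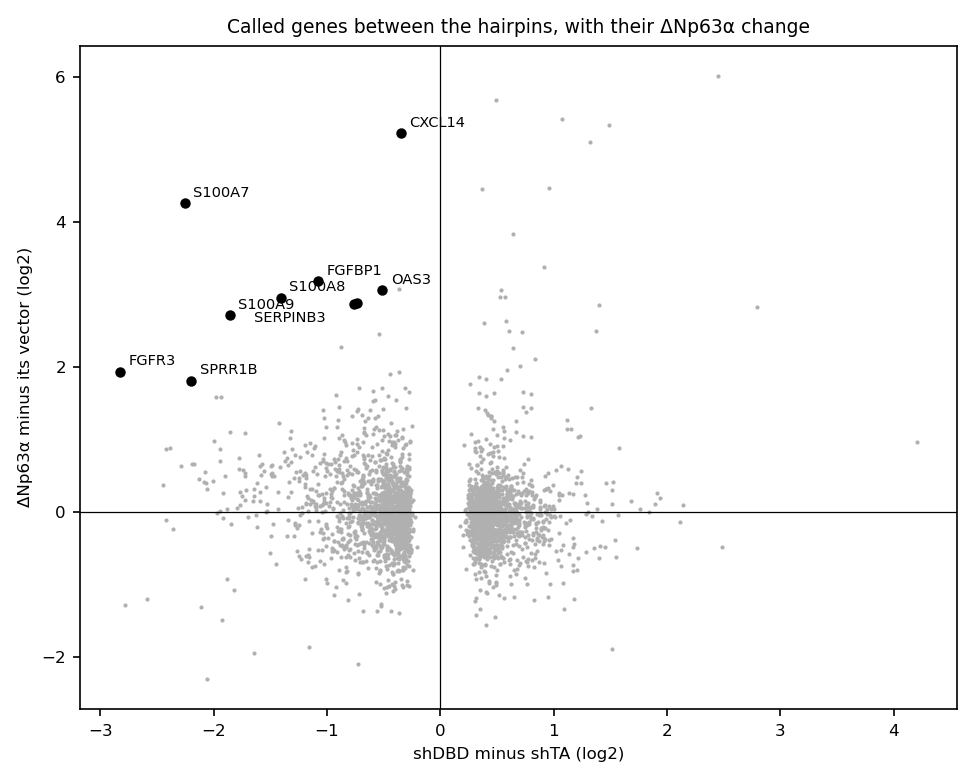
Difference between the hairpins (horizontal, log2) against the change with ΔNp63α from its own vector (vertical, log2) for the 2868 genes called between the hairpins; the black points are the 10 genes called in opposite directions with the largest sum of absolute differences, of which 9 are named. All 10 lie in the upper left, lower with shDBD than with shTA and higher with ΔNp63α than with its vector.

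The 10 genes with the largest opposite differences, ranked by the sum of the absolute hairpin and ΔNp63α differences, were all lower with shDBD and higher with ΔNp63α. Lower means below shTA, not always below the shRNA vector. SERPINB3 was above that vector with both hairpins (0.59 ± 0.10 with shDBD and 1.36 ± 0.10 with shTA). S100A7, S100A8 and S100A9 lay farther from it with shTA, as given above. With shDBD, FGFR3 (−1.90 ± 0.086), FGFBP1 (−1.20 ± 0.096) and SPRR1B (−1.90 ± 0.071) were below it. FGFR3 rose by 1.94 ± 0.10 with ΔNp63α (n = 3) and by 0.75 ± 0.10 with TAp63γ. FGFBP1 rose by 3.19 ± 0.073 and 1.80 ± 0.073. The others included the differentiation and alarmin genes S100A7 (4.26 ± 0.16 with ΔNp63α), S100A8, S100A9, SPRR1B (1.82 ± 0.13) and SERPINB3 (2.88 ± 0.10), the chemokine CXCL14 and OAS3. The isoforms were compared directly in the same limma fit. The rise was larger with TAp63γ in S100A7 (6.85 ± 0.16, adjusted p = 1e-06 between the isoforms), SPRR1B (2.73 ± 0.13, adjusted p = 0.000286), SERPINB3 (adjusted p = 8.5e-05) and S100A9 (adjusted p = 0.0461). It was larger with ΔNp63α in FGFR3 (adjusted p = 1.04e-05), FGFBP1 (adjusted p = 4.26e-07) and OAS3 (adjusted p = 0.00809). For S100A8 (2.96 ± 0.079 with ΔNp63α and 3.05 ± 0.079 with TAp63γ, adjusted p = 0.451) and CXCL14 (adjusted p = 0.0659) the difference between the isoforms did not pass. The hairpin difference of CXCL14 was small (−0.35 ± 0.093), its level with shDBD was below the 20th percentile, and the call was lost without shDBD replicate 1, shTA replicate 1 or shTA replicate 2.

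The gene groups gave different counts with ΔNp63α and with TAp63γ. Replication genes were higher with ΔNp63α in 21 of 30 cases and lower in none, and TAp63γ called 13 higher and 5 lower. Of the 29 kinetochore and spindle genes ΔNp63α called 14 higher and none lower, whereas TAp63γ called 18 lower and none higher. CENPF, for example, changed by 0.37 ± 0.11 with ΔNp63α and by −1.996 ± 0.11 with TAp63γ (adjusted p = 1.79e-07 between the isoforms). Of the 22 mitotic kinases, cyclins and regulators ΔNp63α called 8 higher and none lower, and TAp63γ called 14 lower and 1 higher. DNA repair genes were higher with ΔNp63α in 12 of 19 cases and lower in none, and TAp63γ called 4 higher and 7 lower. The amino acid genes did not show this opposition: PHGDH fell with both isoforms (−1.19 ± 0.13 and −2.60 ± 0.13), as did SLC7A11 (−1.29 ± 0.090 and −4.25 ± 0.090) and ASNS (−1.31 ± 0.081 and −2.87 ± 0.081), and of 16 tRNA synthetases 14 fell with ΔNp63α and 13 with TAp63γ. The interferon list, higher with shDBD, was also higher with ΔNp63α in 38 of 38 genes and with TAp63γ in 34, with IFIT1 at 6.02 ± 0.18 and 3.56 ± 0.18. The p53 target list was lower with ΔNp63α in 8 of 22 genes and higher in 1, and with TAp63γ 12 were higher and 2 lower. EGFR (−0.59 ± 0.17) and the transsulfuration enzyme CBS (−2.30 ± 0.15) were lower with ΔNp63α although they were also lower with shDBD.

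The choice of probe set mattered for a few genes. Of the 2868 called genes 1172 have several probe sets, and a further probe set was called in the same direction in 730, none in 429 and 1 in the opposite direction in 13. Over all genes, 14 had probe sets called in opposite directions: PAFAH1B1, TMED10, DLG5, MARCHF6, RFC5, FGFR2, RUFY3, PIGL, DMAC2L, MBP, PNN, SPTSSA, BBIP1 and ARPP19. For RFC5 the brightest probe set gave 0.84 ± 0.091, a call lost with all 15 arrays in the fit, whereas its other 2 probe sets gave −0.45 ± 0.097 and −0.40 ± 0.11. In the direction of the rest of the clamp loader list, the dimmer probe sets were lower with shDBD. For FGFR2, a further FGF receptor, 1 probe set lay at 7.06 and 7.08 with shDBD and 6.40 and 6.75 with shTA (0.50 ± 0.12) and another at 6.65 and 6.68 with shDBD and 6.94 and 6.96 with shTA (−0.28 ± 0.084), while the brightest probe set was not called (0.092 ± 0.084). For RUFY3 the values were 0.30 ± 0.084 for the brightest probe set and −1.002 ± 0.084 for another. For the splicing-associated protein PNN they were 0.25 ± 0.076 and −0.66 ± 0.10. The calls of the brightest probe sets were lost without any 1 of the 4 arrays for RUFY3, and without either shDBD array or shTA replicate 1 for PNN. Directions of these genes are uncertain here.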

How the data were processed

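Expression was read from 15 arrays of 22277 probe sets; 4 enter the comparison. Per the submitters' processing notes the authors deposited log2 values computed by RMA. Neither its version nor its background settings were given in the sources used here. RMA equalizes the arrays' distributions, so a shift of most transcripts one way would not be seen, and it compresses low levels. Left out were 62 array controls, 1043 probe sets with several gene symbols and 2108 without an entry in the platform annotation, and the signal of most controls is not reported here. Entrez identifiers placed 19052 of the 19064 remaining probe sets in the RefSeq gene list, where 0 symbols differed.

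The difference shDBD minus shTA was tested with limma 3.58.1 in R 4.3.3 on the 4 arrays (2 residual and 6.71 prior degrees of freedom, variance trend on the mean level, two-sided, Benjamini-Hochberg adjustment over 19064 probe sets, threshold 0.05). Values against the shRNA vector came from a fit of 6 arrays and overexpression values from one of 9 arrays, adjusted likewise. The fit was tested on simulated data. Arrays carry no read counts, so their number sets the precision. Detection calls were not used, and a level under the 20th percentile was treated as possibly background.

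The comparison, the 50 gene lists and the 6 marker lists were chosen with earlier results of these data known. Named are the 15 genes with the largest called difference in each direction, for each list up to 4 called genes and 2 uncalled ones, genes with opposite probe sets, and the 10 largest opposite differences with ΔNp63α. The main test did not pair samples by replicate number. Deviations of same-numbered arrays correlated at 0.014 between the hairpins, 0.070 between shDBD and the vector and −0.024 between shTA and the vector. Whether same-numbered arrays were prepared together cannot be told from these values. Alternatives were other sets of arrays, variance settings, normalizations, filters and probe set rules, a replicate block, and leaving out each array.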

Additional observations from a re-analysis of the deposited data

How the results depend on the processing

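The count of called genes (2868) stayed within 1.5 times under 10 alternatives: 3209 with the 6 knockdown arrays in the fit, 2098 with all 15, 2817 without the variance trend, 2874 with a robust prior, 3101 with 1 probe set per gene, 2918 without probe sets low on all 4 arrays, 2894 after quantile normalization, 2900 after cyclic loess, 2868 after median centring and 3075 with the replicate number as a block. It fell to 1846 genes (probe sets 2679) when levels under the 20th percentile were raised to it; the cause was not tested. Leaving out each array gave 1680 to 2292 genes, 2501 to 3472 probe sets and 272 to 294 genes at least 2-fold different, with fewer arrays in the fit. With the replicate block the counts were 4663 probe sets, 2238 genes for ΔNp63α and 4268 for TAp63γ. Leaving out each array gave 1987 to 2749 genes for ΔNp63α and 3858 to 4999 for TAp63γ. Centring moved the split to 1545 higher and 1323 lower, and cyclic loess to 1324 and 1576. Of 226 named called genes none reversed under these alternatives; 33 lost the call with floored levels, 25 with all 15 arrays in the fit, and 28, 30, 22 and 14 without shDBD replicate 1, shDBD replicate 2, shTA replicate 1 and shTA replicate 2.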
